A study of Homo sapiens with 2 samples.

Results

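The transcripts described here encode 39 human lysosomal proteins and subunits of the vacuolar proton pump, of which 24 are lysosomal enzymes, carriers and membrane proteins and 15 belong to the pump. A listed RBMS3 site was counted for a gene when its deleted base lay in the gene's span on the same strand in GENCODE release 44. By this rule 31 of the 39 genes (79.5%) had at least 1 site and together they held 178 of the 27706 listed sites. The same was true of 37.6% of all annotated protein-coding genes. The remaining 8 genes, GAA, MCOLN1, NEU1, GM2A, ATP6V0A1, ATP6V0D1, ATP6V1B2 and ATP6V1F, had none and are called unbound.

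The sites came from CLIP-seq, in which ultraviolet light ties a protein to the RNA it touches before the protein is immunoprecipitated and its RNA sequenced. RBMS3 is an RNA-binding protein with RNA recognition motifs. Both biological replicates formed 1 group of MDA-MB-231 cells, an established line of triple-negative breast cancer, that carried FLAG-tagged RBMS3 introduced with a lentivirus, so the mapped protein was expressed from a transgene. The cells were irradiated at 254 nm with 400 mJ per square centimetre and received no other treatment. The title of the second sample gives MDA-MB-231 and its source label reads MDA-MB-232, and the title was followed. The authors pooled the replicates before calling sites, so no spread between replicates could be given, and all intervals below are 95% Wilson intervals for shares, or order-statistic intervals for medians, that cover counting error only. No library without the FLAG tag, no input library and no measure of transcript abundance was analysed here.

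The lysosome is the acidic compartment in which proteases, glycosidases and lipid hydrolases break down material delivered by endocytosis and autophagy. Its acidity is kept by the V-ATPase, a rotary pump whose cytosolic V1 sector hydrolyses ATP and whose membrane-embedded V0 sector moves protons. The 3′ end of nearly every mRNA is made by cleavage downstream of a poly(A) signal, most often AATAAA in the DNA alphabet, and many genes use several such ends.

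For each site the list gives the number of tags, that is unique sequenced fragments, covering a base and the number of tags in which that base is deleted, the mark left by reverse transcription across a crosslink. The strongest sites of 7 members are printed to show what lay around the deletion. Each is 29 nt of hg38 on the transcript strand, 5′ to 3′, and the deleted base is position 15 counted from 1 at the 5′ end. Capitals mark a poly(A) signal, which was AATAAA in GLB1, LGMN, NPC2 and PSAP, and a variant in the others, ATTAAA in ATP6V1E1, TATAAA in ATP6V1D and AGTAAA in ATP6V1G1. The ATP6V1D window also holds AGTAAA, left in lower case. ATP6V1G1 is shown because none of its many sites had AATAAA.
GLB1: tgttaAATAAAatttgtactcaaatgatg
LGMN: aaaaAATAAAgatttataacagaacccaa
NPC2: tacacctggaaatttactcttgAATAAAt
PSAP: aagtttctgtgatttaacAATAAAattct
ATP6V1E1: gaatatgctttatttATTAAAagagttat
ATP6V1D: taaatgcgactgtggTATAAAcagtaaaa
ATP6V1G1: tgtatcgataatcatttaaaAGTAAAgac

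On the minus strand these lay at chr3:32996726-32996754 (GLB1), chr14:92703810-92703838 (LGMN), chr14:74479967-74479995 (NPC2), chr10:71816308-71816336 (PSAP), chr22:17592174-17592202 (ATP6V1E1) and chr14:67338085-67338113 (ATP6V1D). On the plus strand the ATP6V1G1 window lay at chr9:114598334-114598362. All 7 deletions fell in annotated 3′UTRs. A signal stood upstream of the deletion in GLB1 and LGMN and downstream of it in NPC2, PSAP, ATP6V1E1, ATP6V1D and ATP6V1G1.

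Among the soluble enzymes, all 8 proteases were bound, with 49 sites. CTSC, the dipeptidyl peptidase that activates granule proteases, had 480 deletions among 25951 tags at its strongest site (1.85%, 1.69 to 2.02). CTSL, a cysteine endopeptidase, had 432 among 23392 tags (1.85%, 1.68 to 2.03). LGMN, an asparaginyl endopeptidase, had a single site, with 394 deletions among 3360 tags (11.7%, 10.7 to 12.9), the highest percentage among the printed sites. CTSD, an aspartic protease, had 278 deletions among 27810 tags (1.00%, 0.889 to 1.12), the deepest coverage of any member site. CTSB, CTSA, CTSZ and TPP1 were weaker, and their strongest sites had 148, 60, 66 and 68 deletions.

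Glycosidases, which remove sugars from glycolipids and glycoproteins, were bound in 3 of 5 genes and held only 7 sites. GLB1, the lysosomal beta-galactosidase, nevertheless had the strongest site of all members, with 913 deletions among 12584 tags (7.26%, 6.81 to 7.72), and a further site 14 nt upstream had 423 among 12923 (3.27%, 2.98 to 3.59). HEXA, the alpha subunit of beta-hexosaminidase, had 59 deletions among 1930 tags at its strongest site. GUSB, the beta-glucuronidase, counted as bound through 1 intronic site at which all 14 tags carried the deletion, so the glycosidase count rested on 2 genes with 3′UTR sites.

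Of the lipid enzymes, activators and carriers, with which GRN was grouped here, 5 of 6 were bound. NPC2, which hands cholesterol to NPC1, had 11 sites within 1 stretch of the 3′UTR, and its leading sites had 608 deletions among 14926 tags (4.07%, 3.77 to 4.40) and 600 among 23395 (2.56%, 2.37 to 2.78). GRN, the precursor of the granulins, had 556 among 15773 (3.53%, 3.25 to 3.82). PSAP, the precursor of the saposins that present lipids to their hydrolases, had 502 among 11342 (4.43%, 4.06 to 4.82). LIPA, the acid lipase, had 217 among 5916, and ASAH1, the acid ceramidase, 164 among 10305. GM2A, the activator of ganglioside breakdown, had no site, whereas PSAP was among the strongest.

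Membrane proteins were bound in 4 of 5 genes. LAMP2, a glycoprotein of the limiting membrane with a role in autophagy, held 25 sites, more than any other member, and its strongest had 424 deletions among 17037 tags (2.49%, 2.27 to 2.73). LAMP1, its close relative, reached 140 deletions among 13487 tags, SCARB2, a receptor that carries glucocerebrosidase to lysosomes, 194 among 4511, and NPC1, the cholesterol exporter, 124 among 3409. MCOLN1, a calcium channel of the lysosomal membrane, had none.

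**Figure D1:**
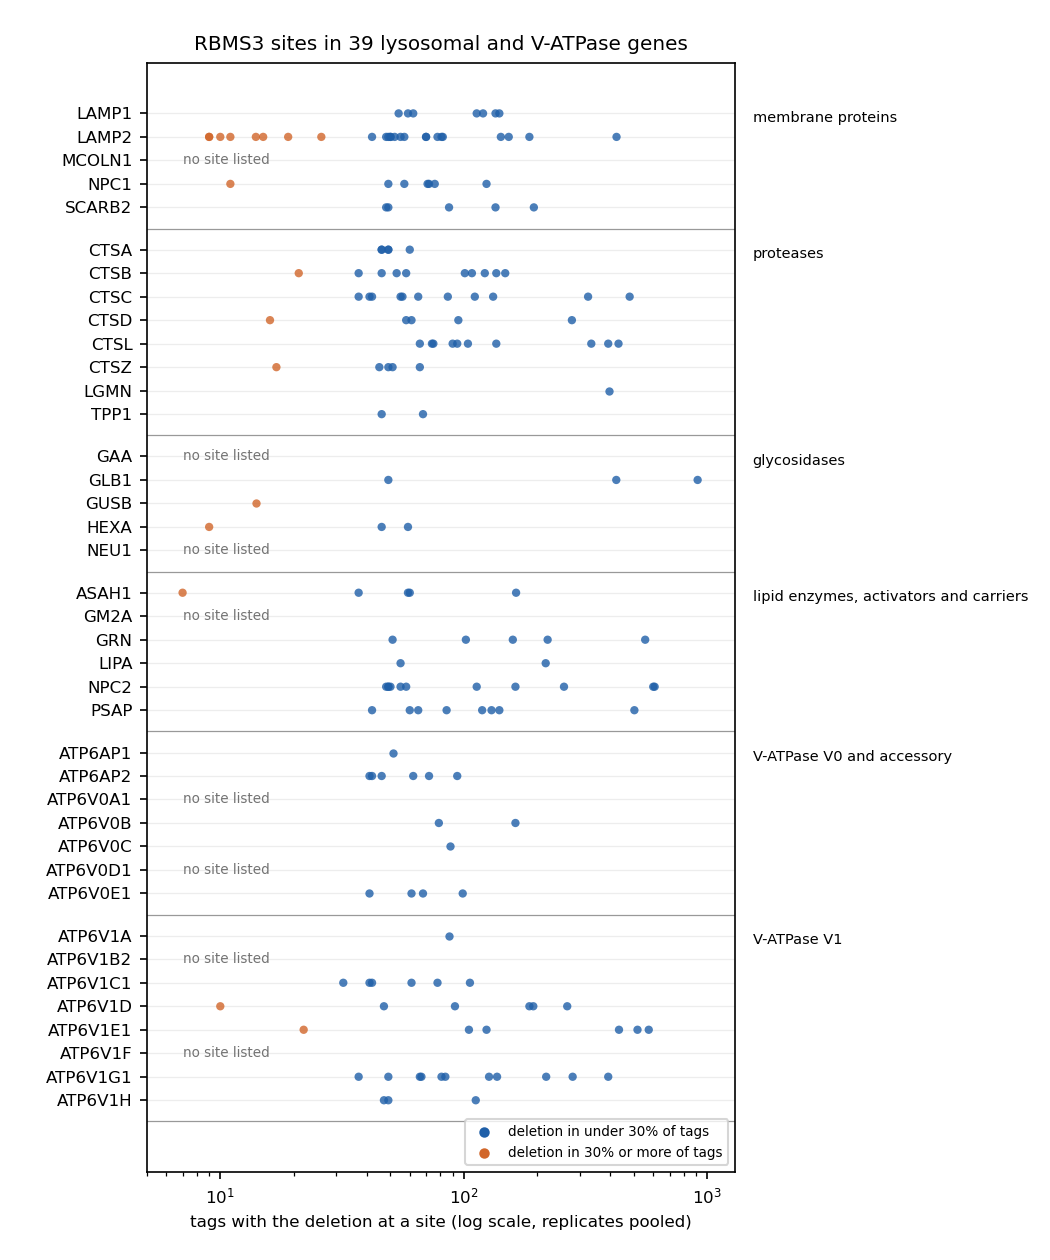
Deletions per site for the 39 genes. Each point is 1 site, the horizontal axis is the number of tags with the deletion on a log scale from pooled replicates, and genes are grouped by role. Blue sites have the deletion in under 30% of tags and orange sites in 30% or more. The GLB1 point at 913 stands farthest to the right, and all orange points lie at 26 deletions or below.

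The V-ATPase was bound in 11 of 15 genes, 5 of 7 for the V0 sector with accessory proteins and 6 of 8 for V1. Strongest sites ranged from 51 to 575 deletions over the 11 genes. In V0, the proton-carrying ring subunits ATP6V0B and ATP6V0C had 163 deletions among 6236 tags (2.61%, 2.25 to 3.04; 10 nt from an annotated transcript end) and 88 among 8500 (1.04%, 0.841 to 1.27; 19 nt). The small membrane subunit ATP6V0E1 had 99 among 4018 tags (2.46%, 2.03 to 2.99; 3 nt). The accessory proteins ATP6AP1 and ATP6AP2, the latter also known as the prorenin receptor, had 51 among 7707 (0.662%, 0.504 to 0.869; 17 nt) and 94 among 13531 (0.695%, 0.568 to 0.849; 12 nt).

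In V1 the strongest site belonged to ATP6V1E1, a peripheral stalk subunit, with 575 deletions among 12474 tags (4.61%, 4.26 to 4.99; 19 nt from an annotated end). The same cluster held sites with 517 deletions among 12392 tags (4.17%, 3.83 to 4.54; 23 nt) and 434 among 12640 (3.43%, 3.13 to 3.77; 10 nt). ATP6V1G1, its partner in the stalk, had 392 among 22348 (1.75%, 1.59 to 1.93; 30 nt), and ATP6V1D, part of the central rotor, 266 among 9588 (2.77%, 2.46 to 3.12; 28 nt). The regulatory subunits ATP6V1H and ATP6V1C1 had 112 among 9177 (1.22%, 1.02 to 1.47; 6 nt) and 106 among 3090 (3.43%, 2.84 to 4.13; 23 nt). ATP6V1A, the catalytic subunit, had 1 site with 87 deletions among 2858 tags (3.04%, 2.47 to 3.74; 43 nt). The other subunit of its hexamer, ATP6V1B2, had no site, nor had ATP6V1F of the rotor and ATP6V0A1 and ATP6V0D1 of V0.

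Almost every member site was in a 3′UTR, 173 of 178 (97.2%, 93.6 to 98.8), against 76.6% of all listed sites. The rule admits only sites within these genes, so intergenic sites could not be members, and of the listed sites in the span of a protein-coding gene 84.8% were in a 3′UTR. No site fell in a 5′UTR, 3 were intronic, 1 was in the coding sequence of LAMP2 and 1 in a noncoding exon of NPC1. With 1 representative transcript per gene, the Ensembl canonical one, 149 sites (83.7%) were in its 3′UTR, 23 in its introns, 4 in its coding sequence and 2 outside it. The numbers differ because several members had sites in the 3′UTRs of alternative transcripts. No list share is given for this placing. The deletion was present in under 30% of tags at 161 member sites (90.4%, 85.2 to 94.0), against 70.1% of the list and 75.6% of listed sites in protein-coding genes. These 161 were all in 3′UTRs, close to the 95.2% of all listed sites under 30%.

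The other 17 sites, at which 30% or more of tags carried the deletion, were shallow, with 7 to 30 tags and a median of 14. The 8280 listed sites at 30% or more were shallow too, with a median of 16 tags and a median of 100% of tags deleted. In 13 of the 17 every tag was deleted, which was 7.30% of member sites against 17.7% of the list. None of the 17 lay within 50 nt of another member site. The 17 sites were spread over 10 genes, with 8 in LAMP2. Of the 12 in 3′UTRs, 2 had an annotated end within 100 nt downstream and none had AATAAA within 25 nt. In the list, too, these shares were higher at 3′UTR sites under 30% than at all 3′UTR sites. They were 76.2% against 69.3% near an end and 58.5% against 52.6% with AATAAA. GUSB was the only member bound through such a site alone, and 30 genes were bound by sites under 30%, against 29.1% of protein-coding genes. The same 30 had a 3′UTR site, against 31.8%.

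Member transcripts were deeply covered. The median number of tags per site was 7921 (5958 to 10703), against 2883.5 for the list, and the median number of deletions was 66.5 (59 to 79), against 54. The median percentage of tags deleted was 1.35% (1.11 to 1.80), against 2.95% for the list. Among sites under 30% alone the differences were smaller. Their medians were 9369 tags (7269 to 12474) against 6180, 74 deletions (65 to 87) against 71, and 1.22% (0.991 to 1.49) against 1.61%. At the strongest 3′UTR site of each of the 30 genes the median was 163.5 deletions and 9382.5 tags, against 83 and 2897 over all 6273 genes with a 3′UTR site. The 6273 sites, unlike the 30, included shallow ones at 30% or more. The number of 3′UTR sites per gene had a median of 5 in members and 2 in the list. Tag numbers also depend on transcript abundance, and its part in the bound share and in these depths was not tested.

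The distance of a site from the nearest annotated transcript end downstream, taken over all transcripts of the gene, had a median of 19 nt (16 to 25) in the 173 member 3′UTR sites and 34 nt in the list. Of the 173, 146 (84.4%, 78.2 to 89.0) were within 100 nt of an end, against 69.3% of listed 3′UTR sites. With 1 site per cluster the member share was 72.4% (59.8 to 82.2), and no list share per cluster is given. Members had up to 59 annotated ends (ASAH1), and which of them are used in these cells was not tested. Taking the strongest site of each gene, which weights genes equally, all 30 members were within 100 nt of an end, against 75.1% of all genes with a 3′UTR site. The 30 member sites were all under 30%, whereas those of all genes included sites at 30% or more, with as few as 7 tags. This holds for every comparison of strongest sites. The largest member distance was 43 nt. The strongest site was 11 nt from an end in GLB1 and CTSL, 12 nt in GRN, 14 nt in LAMP2, 23 nt in CTSC and 24 nt in PSAP, and the leading NPC2 sites were at 39 and 13 nt. When only ends of transcripts labelled protein-coding were used, 27 of the 30 were within 100 nt, against 70.0%. With the end of the representative transcript alone it was 18 of 30 (60%, 42.3 to 75.4), against 55.5%. Over sites, 74 of 173 member 3′UTR sites (42.8%, 35.6 to 50.2) were within 100 nt of that end, against 48.3%. The median distance was 163 nt (91 to 254), against 119 nt. Both list values lay inside the member intervals. LAMP2 supplied 24 of the 173 sites, none of them nearer than 179 nt to its representative end. Shorter distances of member sites were thus seen over all annotated ends and not, over sites, with the representative end alone. The number of annotated ends per gene was not compared with the list. Library construction captured and primed RNA through poly(A), natural or added, and its part in the distance to ends was not tested.

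**Figure D2:**
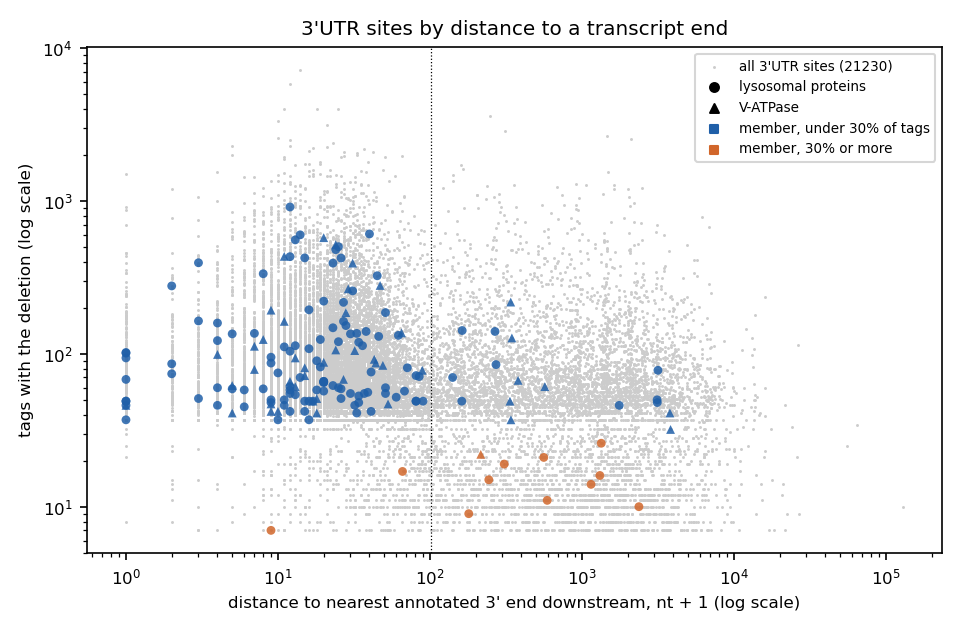
Deletions at 3′UTR sites against the distance to the nearest annotated 3′ end downstream, both on log scales, with 1 nt added to the distance. Grey points are the 21230 listed 3′UTR sites and coloured points the 173 member sites, circles for lysosomal proteins and triangles for the V-ATPase. Blue members gather to the left of the dotted line at 100 nt, where 144 of 161 lie, and 10 of 12 orange members lie to its right. Of all listed 3′UTR sites under 30%, 76.2% were within 100 nt.

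The members differed in which end they carried sites at. Sites within 50 nt of each other were joined into 63 clusters, 58 of them in 3′UTRs, and 46 of those rested on sites under 30%. Of the 46 clusters, 21 were within 100 nt of the end of the representative transcript and 19 were within 100 nt of another annotated end only. The other 6 had no annotated end within 100 nt downstream. Ends upstream of a site were not counted, and clusters of LAMP2 and ATP6V1C1 among the 6 lay just past an annotated end. The 19 clusters came from 16 genes, and for 11 of them the nearest end belonged to a protein-coding transcript. For the other 8 the nearest end was that of a retained-intron or nonsense-mediated decay transcript, but 5 of their strongest sites also lay within 100 nt of the end of a protein-coding transcript. Those of HEXA, LAMP1 and NPC1 did not.

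For 9 members, ASAH1, ATP6AP2, ATP6V0E1, ATP6V1D, ATP6V1G1, ATP6V1H, GLB1, HEXA and LAMP2, no cluster under 30% lay within 100 nt of the representative end. Among them ATP6V1D, ATP6V1H, GLB1, HEXA and LAMP2 have AATAAA in the last 50 nt of the representative transcript. The GLB1 sites, 123 to 137 nt before the representative end, were 11 to 25 nt before the end of GLB1-202. The ATP6V1D sites were 207 to 251 nt before the representative end and 8 to 52 nt before that of ATP6V1D-210.

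LAMP2 had the most clusters in 3′UTRs, 10. Its 11-site cluster was 10 to 70 nt before the end of LAMP2-202, which lies in an intron of the representative transcript LAMP2-201, and its tags per site reached 17928. The alternative last exons of LAMP2 encode different membrane-spanning tails. A cluster of 3 sites at chrX:120431155-120431177 (minus strand, hg38) was 140 to 162 nt before the end of LAMP2-205, with 142 deletions among 3573 tags at its strongest (3.97%, 3.38 to 4.67). A further 3 sites at chrX:120430950-120430989 lay just past the end of LAMP2-205, which is at chrX:120431015. They were at least 3123 nt from the next annotated end downstream. They had up to 16037 tags and AATAAA in every window, and the strongest had 78 deletions among 8105 tags (0.962%, 0.772 to 1.20). The remaining 7 were single sites with 9 to 30 tags, 179 to 2370 nt from an end, with every tag deleted at 6 of them. At the end of LAMP2-201 itself the nearest site was 179 nt away and had 9 tags.

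ATP6V1C1 and ASAH1 had 4 clusters each. In ATP6V1C1 the strongest, at 23 nt from the representative end, had 106 deletions among 3090 tags. Another had 78 among 520 tags (15%, 12.2 to 18.3) at 88 nt from the end of the coding transcript ATP6V1C1-205. The other clusters were 569 nt (61 of 571 tags; 10.7%, 8.41 to 13.5) and 3791 to 3828 nt (41 of 1345 tags; 3.05%, 2.25 to 4.11) from the nearest end downstream, the representative one. The cluster at 3791 to 3828 nt lay just past the end of the coding transcript ATP6V1C1-203, which is 3872 nt before the representative end. In ASAH1 the strongest, 164 of 10305 tags (1.59%, 1.37 to 1.85), was 2 nt from the end of a nonsense-mediated decay transcript, 6 nt from that of a protein-coding one and 480 nt from the representative end. A pair of its clusters lay in introns of the representative transcript, 4 nt (59 of 6280 tags; 0.939%, 0.729 to 1.21) and 24 nt (60 of 646; 9.29%, 7.28 to 11.8) from ends of protein-coding transcripts, and the last was 1 site with 7 of 7 tags, 8 nt from the end of a protein-coding transcript.

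Clusters under 30% lay near annotated ends at several places in 8 members, ASAH1, ATP6V1C1, CTSB, CTSC, CTSZ, LAMP1, NPC1 and SCARB2. CTSC had the cluster with 480 deletions at its representative end and others 27257 and 32503 nt upstream, in introns of the representative transcript, with 56 of 4284 tags and 86 of 2393. SCARB2 had 135 deletions among 11485 tags at the representative end and 194 among 4511 at a site 2735 nt upstream. LAMP1 had 113 among 2994 tags at its representative end and 140 among 13487 at 279 nt before it, where the nearest annotated end belongs to a retained-intron transcript. In CTSB a cluster with 101 deletions among 8899 tags ended at CTSB-201, 1816 nt before the representative end, where the strongest site had 148 among 15984.

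**Figure D3:**
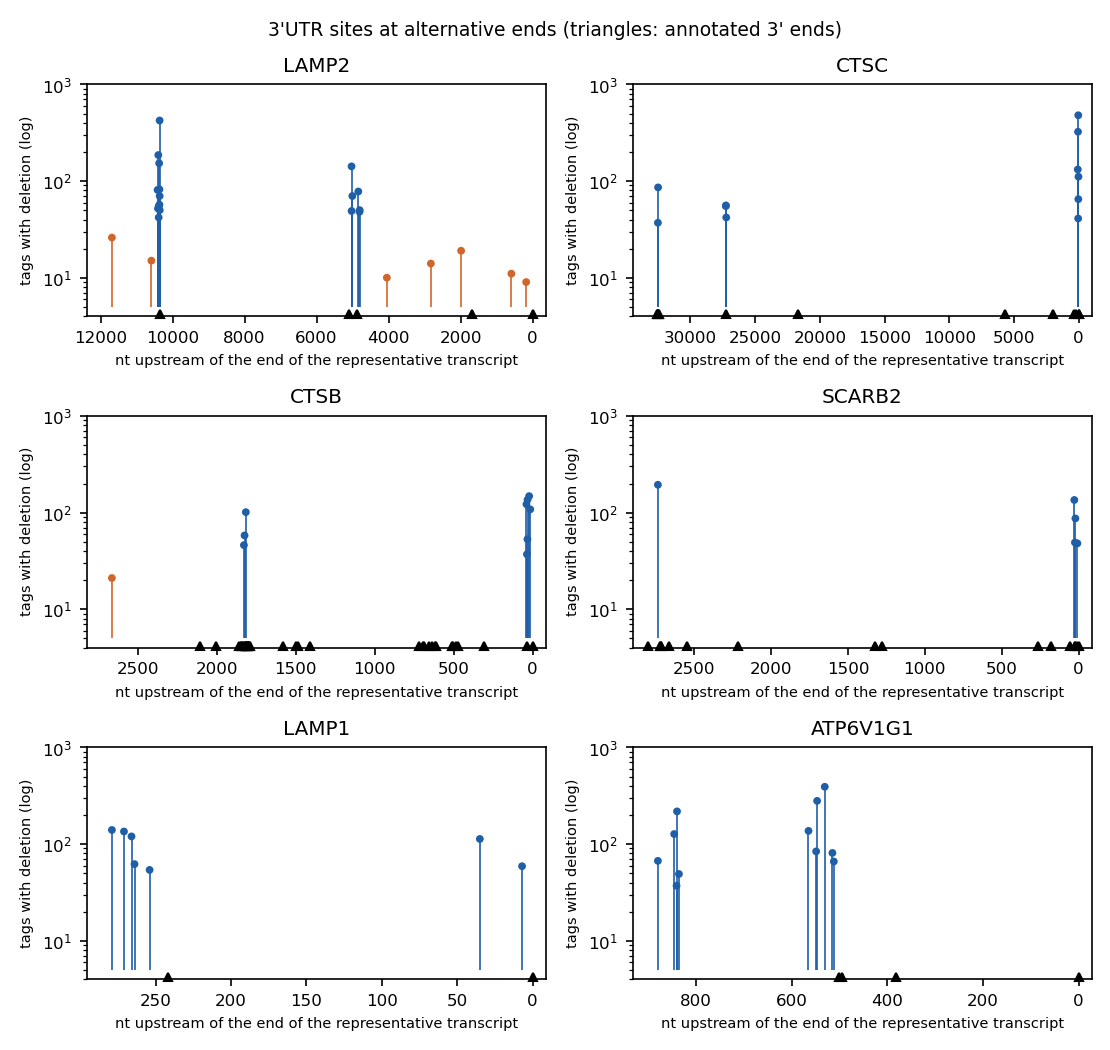
Sites in the 3′UTRs of 6 members by distance, in nt, upstream of the end of the representative transcript, which is at 0 on the right. Height is the number of tags with the deletion on a log scale, blue is under 30% of tags and orange 30% or more, and triangles mark annotated 3′ ends. LAMP2 has its tallest site, 424 deletions, 10360 nt upstream of the representative end, and CTSC has its tallest, 480, at 26 nt.

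Longer 3′UTRs tended to hold more clusters. Over the 30 members with a 3′UTR site, Spearman's rho between merged 3′UTR length and the number of clusters was 0.41 as a description, and it was 0.30 over the 6273 genes. The members had 2 or more 3′UTR clusters in 13 of 30 genes (43.3%, 27.4 to 60.8), against 36.1% of all genes with a 3′UTR site. Merged 3′UTR length had a median of 2423.5 nt in the 30 members and 2011.5 nt in the 8 unbound ones, which ranged from 217 nt (MCOLN1) to 8815 nt (ATP6V0A1).

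The canonical signal AATAAA was searched on the transcript strand in 25 nt on each side of the deletion, 51 nt in all. It was in 106 of 173 member 3′UTR windows (61.3%, 53.8 to 68.2), against 52.6% of all listed 3′UTR windows. A further 15 had ATTAAA without it, 23 had another of 11 variants that differ from it by 1 base, and 29 (16.8%) had none of these, against 20.1% in the list. By gene, 22 of the 30 had AATAAA in at least 1 window. The 8 without were ATP6V1A, ATP6V1D, ATP6V1E1, ATP6V1G1, CTSA, CTSD, HEXA and TPP1, with 37 sites. Overlapping windows of 1 gene often share the same signal, so the site shares are not shares of independent signals. For the strongest site of each gene AATAAA was found in 21 of 30 (70.0%, 52.1 to 83.3), against 59.8%.

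The sectors of the V-ATPase differed in these counts. All 14 V0 and accessory sites, from 5 genes, had AATAAA and were within 100 nt of an end. Of 32 V1 sites in 3′UTRs only 7 had AATAAA, in ATP6V1C1 and ATP6V1H, and 23 of the 32 had an annotated end within 100 nt downstream. The 23 sites of ATP6V1A, ATP6V1D, ATP6V1E1 and ATP6V1G1 had none. ATP6V1E1 had ATTAAA in all 5 sites of its end cluster and ATP6V1D had TATAAA at 4 of its 5 3′UTR sites, as in the printed windows. ATP6V1G1 had 11 sites in a pair of clusters, and 3 of the 11 windows had AGTAAA and no other variant. With 5 and 6 genes and no replicates, the difference between sectors was given without a test.

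The signal was found on both sides of the deletion. Of 106 member windows with AATAAA, the nearest copy started 6 nt or more upstream of the deleted base in 38 (35.8%, 27.4 to 45.3), contained the deleted base in 24 (22.6%, 15.7 to 31.5) and started downstream in 44 (41.5%, 32.6 to 51.0). Over the list these shares were 36.9%, 17.6% and 45.5%. NPC2 had sites on both sides and inside, with 600 deletions 14 nt after the start of the signal, 608 at 8 nt before it and 258 at its second base. In GLB1 the strongest site was 9 nt after the start of the signal and the next strongest 5 nt before it.

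**Figure D4:**
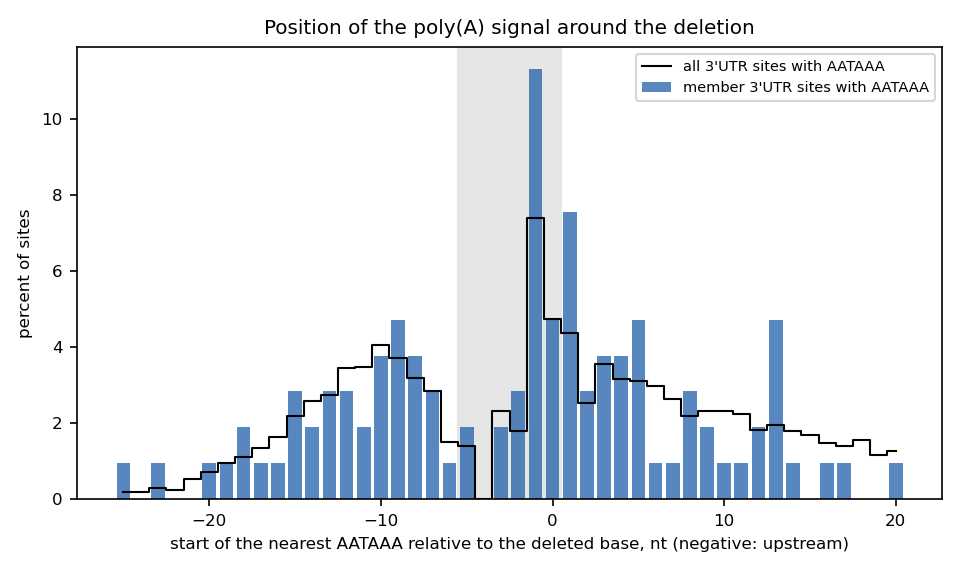
Start of the nearest AATAAA relative to the deleted base, in nt, as a percentage of sites with AATAAA. Bars are the 106 member sites, the black line is the 11177 listed 3′UTR sites, and the grey band marks starts at which the deleted base lies inside the signal. Both have mass upstream and downstream of the deletion, with 35.8% of member sites at 6 nt or more after the start.

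An AUA motif was searched in the same windows in the form used by the study, 7 letters read as A, G or T, then A or T, then ATA, then A or T, then A. It was present in 86 of 173 member windows (49.7%, 42.3 to 57.1), close to the 51.7% in all listed 3′UTR windows. Because this pattern can contain AATAAA when the signal follows a suitable base, matches that held the signal were also set aside, which left 16.2% of member windows and 15.5% of the list. NPC2 and CTSL had the motif in 10 of 11 and 9 of 10 windows, whereas GRN, CTSA, CTSD and ATP6V1G1 had it in none.

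T was the deleted base at 101 of 173 member 3′UTR sites (58.4%, 50.9 to 65.5), against 65.5% in the list, followed by A at 43, C at 16 and G at 13. T was deleted within a run of 3 or more in 62 (35.8%, 29.1 to 43.2), against 45.6%. A deletion in a run cannot be placed on a particular base and the list gives the lowest coordinate. At the strongest site of each gene T was deleted in 18 of 30 (60%, 42.3 to 75.4), against 75.9%.

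Signals at the annotated end were present in bound and unbound members alike. Among the 26 genes with AATAAA in the last 50 nt of the representative transcript 21 were bound, against 39.6% of all such protein-coding genes. With ATTAAA alone 4 of 5 were bound (39.9% of all such genes), and with neither 6 of 8 (30.6%). The unbound GAA, MCOLN1, ATP6V0A1, ATP6V0D1 and ATP6V1B2 had AATAAA there, ATP6V1F had ATTAAA, and NEU1 and GM2A had neither. An unbound gene had no site that passed the filters of the list, and no listed site under 30% had fewer than 110 tags, so low coverage and absence of binding cannot be told apart.

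Assignment to a gene was uncertain for 11 sites in ATP6V0C, CTSD, HEXA and TPP1, which also lie in another annotated gene on the same strand, and without these sites 27 members were bound. The 31 nt around a deletion had a single exact copy in hg38 for 176 of the 178 sites. The exceptions were ATP6V1E1 sites with 105 deletions among 9151 tags and with 22 of 22 tags, each with a second copy elsewhere in the genome.

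Other lysosomal genes were examined by count, in a list of 105 further hydrolases, membrane proteins, sorting receptors, regulators, and V-ATPase subunits and assembly factors. Of these 55 (52.4%) were bound, against 37.6% of all protein-coding genes, and 52 were bound by sites under 30%, against 29.1%. Sorting receptors were bound in 5 of 6, hydrolases in 21 of 40, membrane proteins in 14 of 27, regulators in 7 of 13 and assembly factors in 4 of 8. Their strongest sites belonged to LAPTM4A, a small membrane protein (2391 deletions among 31647 tags), VMA21, a chaperone of V0 assembly (2270 among 28647), SLC17A5, the sialic acid exporter (564 among 12279), CD63, a tetraspanin (532 among 18195), and GGH, gamma-glutamyl hydrolase (453 among 16835). LAPTM4A and VMA21 exceeded every one of the 39 members.

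Of the 11 further V-ATPase subunits 4 were bound (36.4%), close to the 37.6% of all protein-coding genes. ATP6V0A2 had 76 deletions among 1539 tags, ATP6V0E2 129 among 6611, and RNASEK 138 among 11124. ATP6V1E2 had 34 of 34 tags at its only site. TCIRG1, ATP6V0A4, ATP6V0D2, ATP6V1B1, ATP6V1C2, ATP6V1G2 and ATP6V1G3 had no site. Several of these are known for expression in kidney, bone or brain, and their expression in MDA-MB-231 was not measured here. All 7 genes of a mesenchymal-like list had sites, against 37.6% of protein-coding genes. Of 5 epithelial or hormone receptor genes CDH1, ESR1 and PGR had none, EPCAM had 20 of 20 tags and KRT19 had 115 among 3104. A site is not a measure of expression, so these counts cannot check the identity of the cell line.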

How the data were processed

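The authors appended molecular identifiers to the reads, processed them with the CLIP Tool Kit on hg38, pooled both replicates and called deletion sites (crosslinking-induced mutation sites) with filters on false discovery rate and fold. Tool versions are not given in the sources used here. The deposited values are counts per site, of tags and of tags with the deletion, not normalized and with no per-replicate values, so depth is given per site. Here the deleted base was the centre of each 21-nt interval. Sites were placed on GENCODE release 44, all transcripts, in the order 3′UTR, 5′UTR, coding sequence, noncoding exon, intron. Sequences came from hg38 (samtools 1.23.1, pysam 0.24.0, pandas 2.3.3, Python 3.11.15). The functions were tested on simulated transcripts.

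The 39 members and all lists and alternatives were chosen with earlier results of these data known, and no hypothesis was tested. Every member was accounted for. Full values were given for the strongest site of each bound V-ATPase gene, the 10 member sites with most deletions, and all clusters of the 3 genes with most 3′UTR clusters. Alternatives tried were stricter deletion filters, 1 site per cluster, 1 transcript per gene, other windows and other motif definitions.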

Additional observations from a re-analysis of the deposited data

How the results depend on the processing

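Of 50 alternative values, 23 stayed within 1.5 times the count or within the 95% interval of the share or median and 27 moved outside it. Requiring deletions in at least 10% of tags changed most: 12 members and 25 further lysosomal genes were bound, 78.3% of member sites were in 3′UTRs, and of these 33.3% were within 100 nt of an end (median 275 nt), with AATAAA in 16.7%, the AUA motif in 16.7% and T deleted in 66.7%. No value for all genes or for the list is given under this filter, so whether the change was particular to members was not tested. With at least 20 deletions the 3′UTR share was 100%. With at least 50 it was 100% and 91.9% were near an end. With 1 site per cluster the shares were 92.1% in 3′UTRs and 72.4% near an end, and the median percentage of tags deleted was 3.64%. With 1 transcript per gene they were 83.7% and 49.7%, at a median of 102 nt. Within 100 nt of representative ends lay 42.8% (35.6 to 50.2) of the 173 member 3′UTR sites and 48.3% of the listed ones. With windows of 10 nt on each side AATAAA was in 37.6% and the motif in 31.8%, and with 50 nt in 69.9% and 57.2%. AATAAA or ATTAAA was in 69.9%, and motif matches without AATAAA in 16.2%. At deletions outside any run of identical bases, T was deleted at 40.5%. Chosen after seeing the data, sites under 30% gave 100% in 3′UTRs and 89.4% near an end, against 95.2% and 76.2% in the list. AATAAA or any of 11 variants, a later choice too, was in 83.2%. Ends of protein-coding transcripts only, also added later, kept both values within the intervals (78.6% near an end, median 25 nt).

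No paired analysis was possible because the replicates form 1 group and were pooled before sites were called. For the same reason no replicate could be left out. The 17 sites at 30% or more rest on at most 30 tags each.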
